A study of Mus musculus with 6 samples.

Results

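The genes described here, 41 in number, belong to the secretory pathway and the unfolded protein response and were followed across the cells of the mouse spleen. They were chosen by name as the machinery that moves proteins into the endoplasmic reticulum, folds, glycosylates and degrades them there, with the sensors and transcription factors that watch over it. All 41 of the 41 names were found among the 31053 genes of the count matrix, and all were seen in kept cells. No measured value of these data entered the choice by rule, although earlier results of these data were known when the list was drawn up.

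The cells were splenocytes of C57BL/6 mice measured by CITE-seq, which counts messenger RNA and antibody-bound surface proteins in the same droplets. There were 3 groups, each of 5 mice whose cells were pooled, giving 1 RNA and 1 antibody library per group: aged mice of 20 months given recombinant PF4, a chemokine released by platelets, aged mice of 20 months given saline, and young mice of 3 months given saline. PF4 (5 µg/mL) or saline went into the tail vein in 8 injections of 100 µL over 24 days. Because the mice of a group were pooled, no spread between animals could be measured.

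In the joint matrix a suffix of 1, 2 or 3 on each barcode marks its library, but the labels, methods and headers do not say which library had which age or treatment. The libraries are therefore called library 1, 2 and 3, age and PF4 are not compared, and differences carry intervals in place of tests. Libraries are not replicates of a condition. Values of the main comparisons are given per library, values with no library named are from all 3 libraries together, and every interval is an exact 95% interval that covers counting error only.

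Of 29005 barcodes, 20161 were kept (4199, 7511 and 8451 in libraries 1, 2 and 3) with 300 to 5000 genes and at most 10% mitochondrial counts. They held 88000761 RNA UMIs (unique molecular identifiers, each standing for 1 captured molecule), with medians per cell of 3741, 3625 and 3765. Between libraries, 68 barcode sequences were shared, 43 of them among kept cells. Free RNA was visible: Jchain, the joining chain of secreted IgM and IgA, had 12.8 CPM (counts per 1000000 RNA UMIs) in T-like cells, of which 6.16% held a Jchain UMI at a median of 5060 UMIs per cell. Doublets were limited only by the upper bound on genes.

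Proteins bound for secretion or for membranes enter the endoplasmic reticulum through the Sec61 channel, lose their signal peptide, receive sugars and disulfide bonds, and are held by chaperones until folded. When unfolded chains build up, the sensors Ire1 (gene Ern1), Atf6 and Perk raise the chaperones, the folding enzymes and the degradation machinery through the factors Xbp1, Atf6 and Atf4. Plasma cells, which secrete antibody, need Xbp1 to expand this compartment, and in the spleen they sit beside follicular, marginal zone and B1 B cells that carry antibody mainly as a surface receptor.

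The best known DNA element of this response is the endoplasmic reticulum stress element (ERSE), bound by Atf6 with the factor NF-Y. It was searched on both strands as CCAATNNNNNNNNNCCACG in promoter windows of 250 bases before to 50 bases after each gene's start (RefSeq, build GRCm38.p6). The shorter form, ERSE-II, was searched as ATTGGNCCACG. Windows were found for 33 of the 41 genes. ERSE occurred in 7 of these 33 genes (21.2%), against 37 of all 27025 genes with a window (0.137%). ERSE-II occurred in 2 of 33 (6.06%), against 12 genes in all (0.0444%). The 9 genes with a match are printed to show where the element lies. The list was picked by name for this response, and ERSE is its best known element. The excess over all genes is therefore a description and no independent result. Each line gives 10 bases on either side of the match, 5′ to 3′ on the strand of the gene, with the match in capitals. A match that begins with CGTGG is the element on the opposite strand.
Hspa5 (chr2:34772015-34772053, + strand): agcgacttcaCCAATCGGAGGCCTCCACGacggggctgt
Calr (chr8:84847065-84847103, - strand): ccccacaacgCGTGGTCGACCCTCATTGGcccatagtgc
Canx (chr11:50325790-50325828, - strand): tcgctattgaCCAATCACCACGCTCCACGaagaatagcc
Creld2 (chr15:88819510-88819548, + strand): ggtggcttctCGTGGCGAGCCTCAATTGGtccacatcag
Dnajc3 (chr14:118937817-118937855, + strand): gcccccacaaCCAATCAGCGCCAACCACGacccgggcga
Pdia6 (chr12:17266481-17266519, + strand): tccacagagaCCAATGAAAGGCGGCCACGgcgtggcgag
Dnajb11 (chr16:22857842-22857872, + strand, ERSE-II after the start): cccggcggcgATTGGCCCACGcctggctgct
Herpud1 (chr8:94386367-94386397, + strand, ERSE-II): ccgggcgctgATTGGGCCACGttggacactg
Hsp90b1 (chr10:86705523-86705666, - strand, 2 elements): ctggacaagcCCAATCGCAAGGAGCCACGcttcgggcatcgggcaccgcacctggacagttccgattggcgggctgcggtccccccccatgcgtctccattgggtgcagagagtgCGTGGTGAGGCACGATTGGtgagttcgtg

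Of these 9 genes, 7 encode chaperones of the endoplasmic reticulum or their partners, and the others are the isomerase Pdia6 and Herpud1 of the degradation group. Hsp90b1 was the gene of the list with 2 elements in its window, facing opposite ways. Of other elements searched on both strands, the Xbp1 element TGACGTGG was in 0 of the 33 genes, against 0.714% of all genes. The Atf4 element TTGCATCA was in 1 of 33, Herpud1, against 1.03% of all genes. A match is a description of letters in this window and not evidence of binding, and a missing match says only that the letters were not in it.

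Plasma cells were taken as kept cells with at least 20 Jchain and at least 3 Xbp1 UMIs. Neither gene is on the list of 41, but Xbp1 is a factor of the same response, and fixed UMI minimums favour cells with many UMIs. The gate held 125 cells (43, 45 and 37 per library) with a median of 16549 UMIs, against 10771 other B cells with a median of 3191. Their label was checked on markers. Of 10 plasma cell markers, Jchain and Xbp1 had to be high by the gate. The sum of the other 8 was 18984 CPM in plasma cells and 419 CPM in other B cells, with 7 of 8 higher, and the exception was Tnfrsf13b at 193 against 281 CPM. Most of this sum came from the antibody genes Ighg2c (10329 against 39.7 CPM) and Igha (5249 against 27.1 CPM), and from Slpi (2743 against 8.71 CPM). Prdm1 had 96.6 against 3.59 CPM, Tnfrsf17 90.7 against 0.0544 CPM, and Irf4 106 against 55.0 CPM. Sdc1, which encodes the plasma cell surface protein CD138, had 178 against 4.00 CPM. The sum of 7 B cell markers was 1202 CPM against 8986 CPM, and none of the 7 was higher or at 0. At the protein level, CD44 took 14.02% of antibody counts in plasma cells and 3.26% in other B cells. Of the gated cells, 107 lay in 1 cluster led by Tnfrsf17, Derl3 and Sdc1, and the other 18 lay elsewhere.

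In plasma cells the 41 genes together took 2.19% of RNA UMIs in library 1 (2.16 to 2.23), 2.33% in library 2 (2.29 to 2.36) and 3.71% in library 3 (3.66 to 3.76). In other B cells they took 0.589%, 0.565% and 0.538%. Every library of plasma cells lay above every library of other B cells, and the ratio was 3.72, 4.12 and 6.89, or 4.85 over all cells (4.81 to 4.90). Immunoglobulin genes, counted here with Jchain, took 56.1%, 54.5% and 39.3% of the UMIs of plasma cells and 1.72% of those of other B cells, so every other gene is diluted on this scale. Jchain, a gene of the gate, had 20227 CPM in plasma cells, and it is left out wherever immunoglobulin genes are. With immunoglobulin genes left out of the total, the share was 5.00%, 5.11% and 6.11% in plasma cells and 0.5999%, 0.575% and 0.547% in other B cells, with ratios of 8.33, 8.89 and 11.2.

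Plasma cells stood above all classes of the spleen that could be named. Plasmacytoid-like cells, dendritic cells that secrete interferon, came next at 1.09%, and all other classes lay between 0.281% in neutrophil-like cells with granule genes and 0.711% in monocyte-like cells. Left out of this comparison were 739 unnamed cells and 16 cells of the plasma cluster outside the gate. An unnamed cluster of 207 cells, 4 of them gated, had Derl3 among its leading genes and a median of 649 UMIs.

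**Figure D1:**
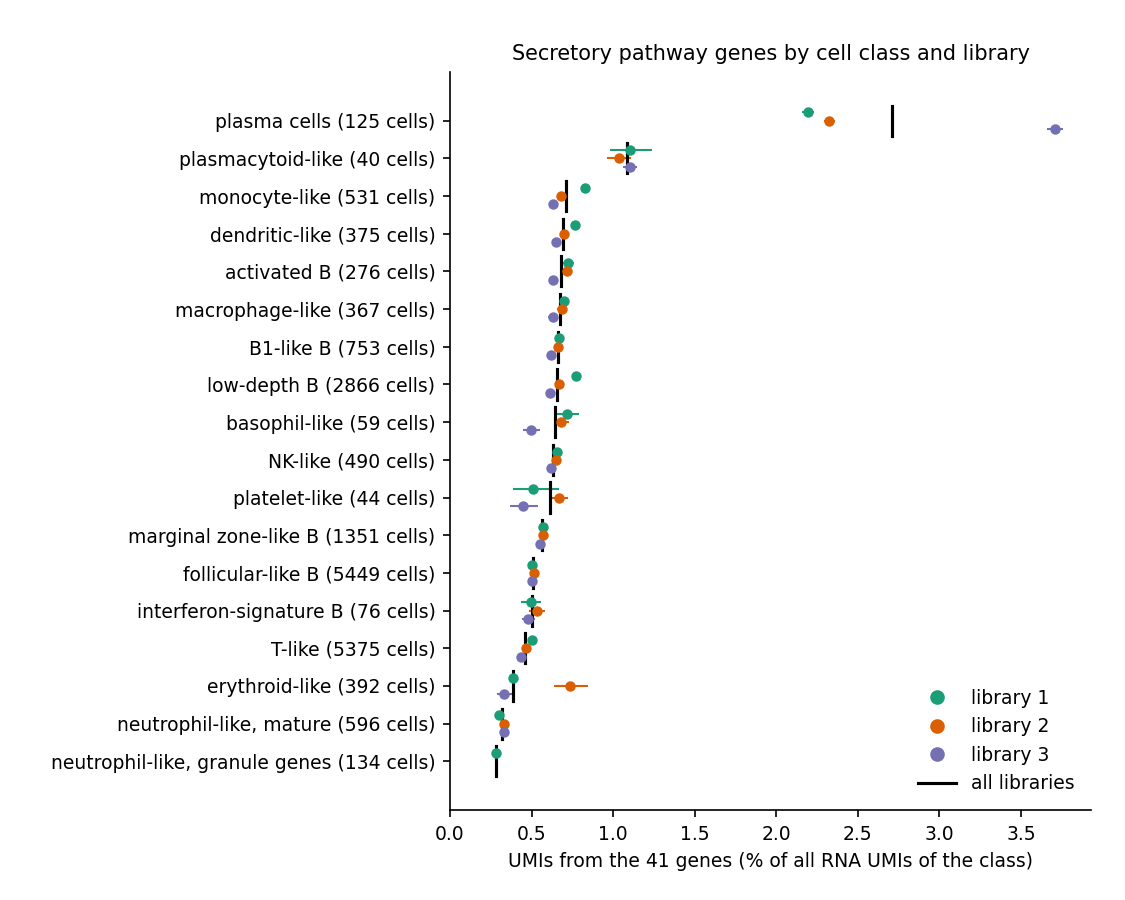
Share of all RNA UMIs from the 41 genes (x axis, percent) in each cell class (y axis), with points for libraries 1, 2 and 3, bars for exact 95% counting intervals and a line for all libraries together. Plasma cells lie at 2.19%, 2.33% and 3.71%, plasmacytoid-like cells near 1.09%, and the other classes lower.

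Of the 41 genes, 30 were at least 2-fold higher in plasma cells in each of the 3 libraries, against 4.28% of the 6290 genes at 20 CPM or more in either class. None of the 41 was at least 2-fold lower in every library, against 36.9% of all genes. Without immunoglobulin genes in the total, 38 of 41 were higher (all genes, 9.17%) and 0 lower (all genes, 7.98%). The median log2 ratio of the 41 genes was 2.17, and that of all genes was -1.16. Leaving immunoglobulin genes out moved these medians to 3.16 and -0.19. Of the 41 genes, 37 lay above the 90th percentile of all genes, which was 0.48 on the log2 scale. Each role group is described by its genes with the largest and the smallest ratio, and Hsp90b1, Hspa5 and Mzb1 were added after their values were seen, as the genes of the list with the most UMIs in plasma cells.

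**Figure D2:**
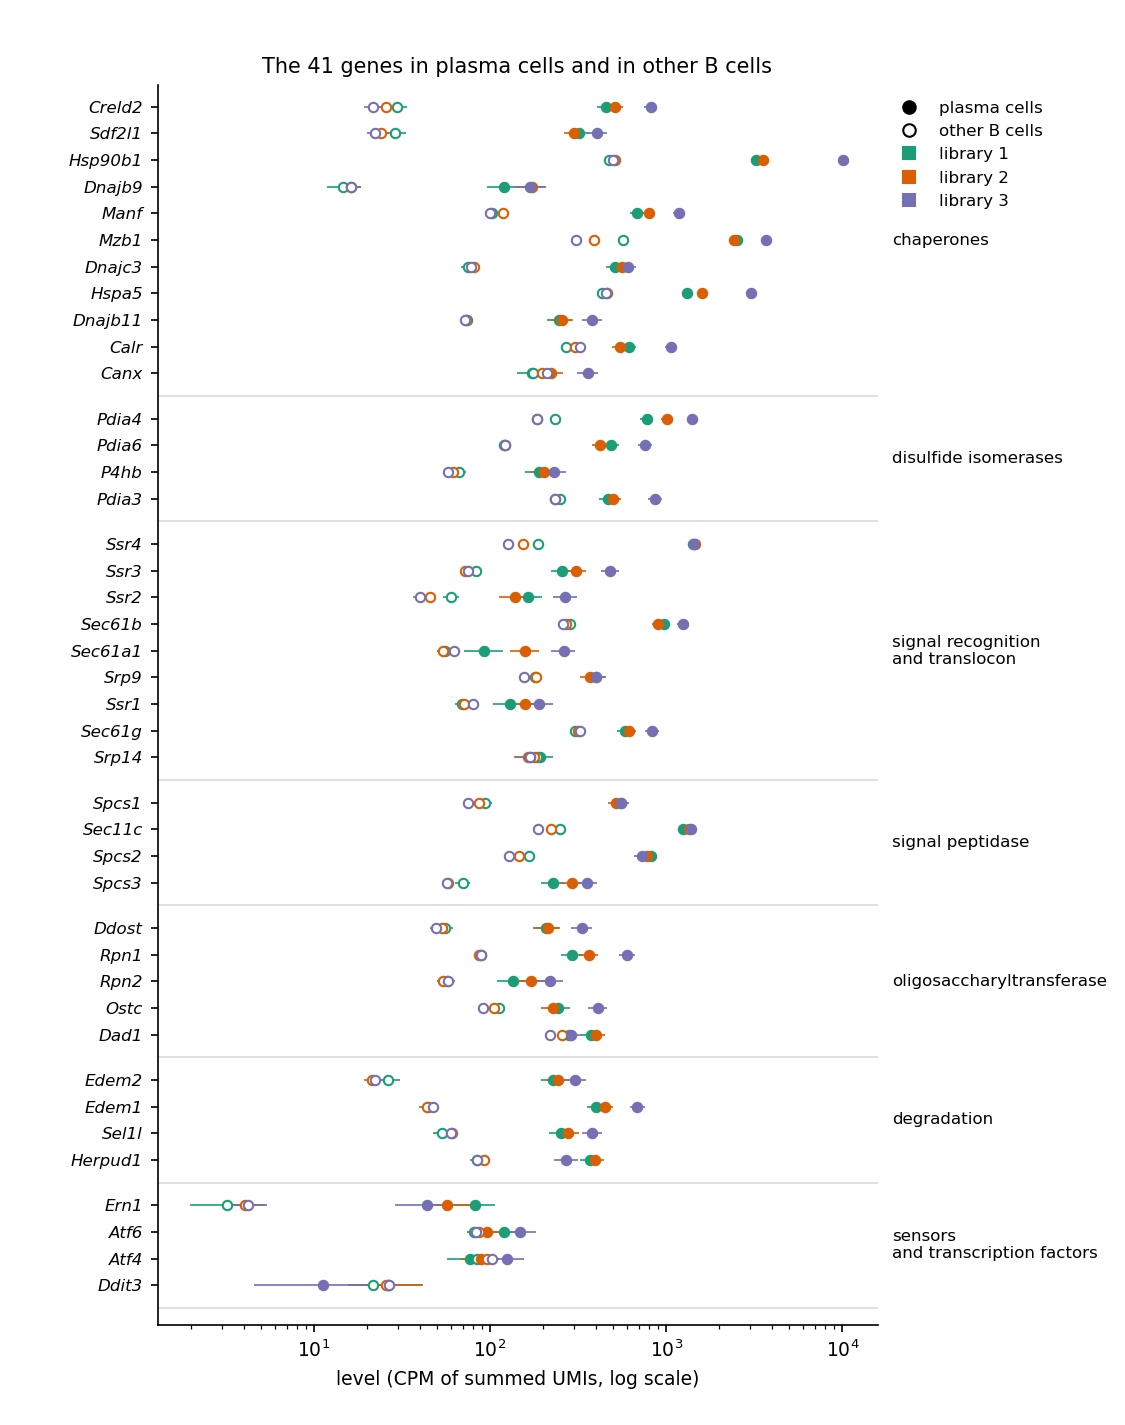
Level of each of the 41 genes (CPM of summed UMIs, log axis) in plasma cells (filled) and other B cells (open) of libraries 1, 2 and 3, by role, with exact 95% intervals as bars. Filled points lie to the right of open ones for most genes, while for Canx, Srp14, Atf4 and Ddit3 the ranges over the libraries overlap.

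The chaperones and their partners, 11 genes, took 1.40% of UMIs in plasma cells and 0.217% in other B cells, a ratio of 6.46 (4.53, 4.96 and 10.3 per library). Of the 11, 9 passed 2-fold in every library, and Calr (2.37, with 1.79 in library 2) and Canx (1.24) did not. Creld2, which encodes a stress-induced protein of the lumen, had the largest ratio of the whole list, with 454, 514 and 815 CPM in plasma cells and 29.5, 25.7 and 21.6 CPM in other B cells. Its ratio was 23.8 (21.8 to 26.01), and the levels of the classes were far apart in every library. Canx, the membrane-bound lectin chaperone, had 172, 221 and 358 CPM in plasma cells and 176, 198 and 210 CPM in other B cells. For Canx the classes overlapped in libraries 1 and 2 and were apart in library 3.

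Hsp90b1 encodes Grp94, the Hsp90 of the endoplasmic reticulum. It had 3216, 3545 and 10053 CPM in plasma cells and 474, 514 and 499.9 CPM in other B cells, a ratio of 10.8 (10.6 to 11.1). Per library the ratio was 6.78, 6.90 and 20.1. Library 3 stood far above libraries 1 and 2 in plasma cells, while the libraries of other B cells were close together. Hspa5, which encodes the Hsp70 chaperone BiP, had 1309, 1598 and 3039 CPM in plasma cells and 429, 459 and 454 CPM in other B cells. Its ratio of 4.30 (4.15 to 4.45) was smaller than that of Hsp90b1, and library 3 was again the highest in plasma cells. Mzb1, a partner of Grp94 found mainly in B lineage cells, had 2531, 2411 and 3684 CPM in plasma cells and 569, 388 and 305 CPM in other B cells. Its ratio was 7.38 (7.16 to 7.61), and in other B cells, unlike in plasma cells, library 1 was the highest. The remaining chaperone partners with a ratio above 7 were Sdf2l1 (14.02), Dnajb9 (9.68), Manf (8.10) and Dnajc3 (7.12), and Dnajb11 had 4.01.

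The 4 disulfide isomerases, which form and shuffle disulfide bonds, had a summed ratio of 3.92, and 3 of the 4 passed 2-fold in every library. Pdia4 had 774, 1005 and 1399 CPM in plasma cells and 234, 184 and 185 CPM in other B cells, with a ratio of 5.43 (5.17 to 5.70). Pdia3, the isomerase that works with Calr and Canx on glycoproteins, had 466, 497 and 863 CPM in plasma cells and 249, 232 and 235 CPM in other B cells. Its ratio of 2.53 did not count because it was 1.87 in library 1, although the classes did not overlap in any library. Pdia6 (4.51) and P4hb (3.38), the classical isomerase, passed.

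The 9 genes of signal recognition and of the translocon had a summed ratio of 3.41, and 5 of the 9 passed. Ssr4, a subunit of the translocon-associated complex, had 1421, 1459 and 1435 CPM in plasma cells and 187, 153 and 127 CPM in other B cells. Its ratio was 9.72 (9.29 to 10.2), and its level differed between the libraries of plasma cells by less than their counting intervals. Srp14 encodes a protein of the signal recognition particle, where it pairs with Srp9. It had 191, 164 and 169 CPM in plasma cells and 184, 177 and 169 CPM in other B cells, a ratio of 0.999 (0.895 to 1.11), and the classes overlapped in every library. Without immunoglobulin genes in the total the ratio of Srp14 was 1.98. Its partner Srp9 had a ratio of 2.27 and passed in every library. Of the channel itself, Sec61b passed (3.83), while Sec61a1 (2.89) and Sec61g (2.10) fell short of 2 in library 1, Sec61g also in library 2. Of the translocon-associated complex, Ssr2 (4.09) and Ssr3 (4.57) passed as well, and Ssr1 (2.12) did not, with 1.87 in library 1.

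All 4 genes of the signal peptidase, the enzyme that cuts signal peptides, passed, with a summed ratio of 5.89 (4.91, 5.73 and 6.71 per library). Spcs1, a non-catalytic subunit, had 550.0, 516 and 550.3 CPM in plasma cells and 94.1, 86.1 and 74.8 CPM in other B cells, a ratio of 6.51 (6.07 to 6.98). Spcs3, another subunit, had 228, 292 and 355 CPM in plasma cells and 69.8, 57.5 and 57.3 CPM in other B cells, a ratio of 4.86 (4.43 to 5.33). The 4 subunits lay between 4.86 and 6.51, and Sec11c, the catalytic one on the list, had a ratio of 6.235. The remaining subunit, Spcs2, had one of 5.45.

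The 5 genes of the oligosaccharyltransferase, which attaches sugar chains, had a summed ratio of 2.73, and 4 of the 5 passed. Ddost had 207, 213 and 331 CPM in plasma cells and 55.5, 53.6 and 49.0 CPM in other B cells, a ratio of 4.76 (4.30 to 5.25). Dad1 had 372, 399 and 289 CPM in plasma cells and 279, 257 and 219 CPM in other B cells, a ratio of 1.46 (1.35 to 1.57). Plasma cells were higher for both, and for Dad1 library 3 was the lowest in both classes. Rpn1 (4.70), Rpn2 (3.09) and Ostc (2.88) passed.

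The 4 genes of degradation, which withdraw misfolded chains from the lumen, had a summed ratio of 6.57 (6.29 to 6.86), which overlapped that of the chaperones, and all 4 passed. Per library it was 6.01, 6.25 and 7.65, above the chaperones in libraries 1 and 2 and below them in library 3. Edem2, which helps trim mannose from chains marked for degradation, had 228, 242 and 302 CPM in plasma cells and 26.4, 21.5 and 22.3 CPM in other B cells, a ratio of 11.3 (10.1 to 12.6). The related Edem1 was close to it at 11.1, and Sel1l, which links substrates to the ubiquitin ligase Hrd1, had a ratio of 5.09. Herpud1, a membrane protein of the degradation complex, had 368, 395 and 269 CPM in plasma cells and 83.7, 92.1 and 84.0 CPM in other B cells, a ratio of 3.99 (3.67 to 4.33). Unlike most genes of the list, Herpud1 was lowest in library 3 of the plasma cells.

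The sensors and transcription factors had the smallest summed ratio, 1.42 (1.61, 1.26 and 1.51 per library), and 1 of the 4 passed. Ern1, the sensor that splices the Xbp1 message, had 82.4, 57.1 and 43.6 CPM in plasma cells and 3.21, 4.09 and 4.25 CPM in other B cells. Its ratio of 15.4 (11.995 to 19.6) was the second largest of the list and rested on 124 UMIs in plasma cells and 147 in other B cells. It was 25.3, 14.01 and 10.4 in libraries 1, 2 and 3, and the classes were apart in each. Ddit3, which encodes the stress factor Chop, had 26.5, 26.4 and 11.3 CPM in plasma cells, from 44 UMIs, and 21.7, 25.7 and 26.6 CPM in other B cells. Its ratio of 0.859 (0.620 to 1.16) had an interval that included 1, and without immunoglobulin genes it was 1.70. In library 3 alone it was 0.454. Atf4 had 76.5, 89.1 and 124 CPM in plasma cells and 84.7, 96.5 and 103 CPM in other B cells, a ratio of 0.984 (0.847 to 1.14), and without immunoglobulin genes 1.95. Atf6 had a ratio of 1.43 (1.25 to 1.63), with 1.505, 1.12 and 1.79 in libraries 1, 2 and 3. So for Srp14, Atf4 and Ddit3 the side of 1 depended on whether immunoglobulin was part of the total.

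**Figure D3:**
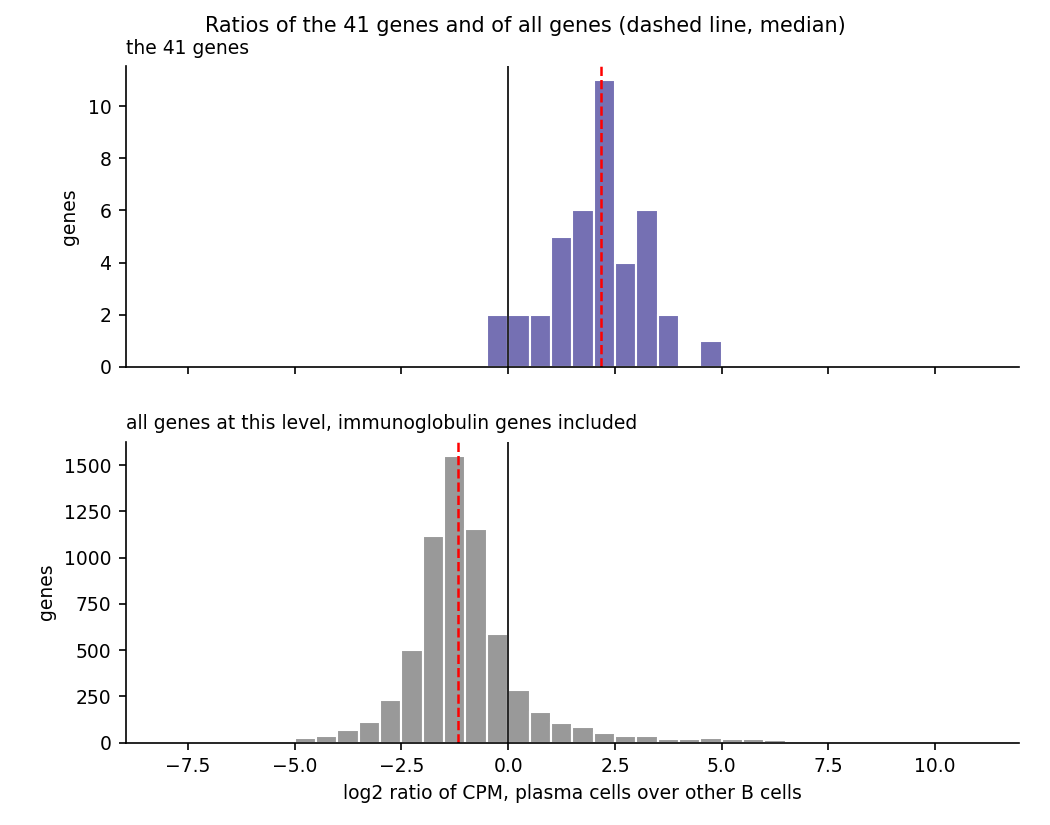
Numbers of genes (y axes) by log2 ratio of CPM, plasma cells over other B cells (x axis), for the 41 genes (top) and for all genes at 20 CPM or more in either class (bottom), with dashed lines at the medians. The median of the 41 genes is 2.17 and that of all genes is -1.16.

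Ratios were set beside the sequence matches. Of the 9 genes with an ERSE or ERSE-II, 7 passed 2-fold in every library, with a median ratio of 4.30 and a range of 1.24 for Canx to 23.8 for Creld2. Of the 24 genes with a window and neither element, 17 passed, with a median of 4.64, so the medians of both sets were close.

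The 125 plasma cells are deeper than other B cells, so each cell was also thinned to 1000 UMIs, which left out 0 plasma cells and 889 other B cells. A thinned plasma cell held a median of 14 of the 41 genes (quartiles 10 and 18) and 22 of their UMIs, against 5 genes (3 and 6) and 5 UMIs in other B cells. Creld2 was seen in 45.6% of thinned plasma cells and 2.04% of thinned other B cells, where the unthinned shares were 93.6% and 7.49%. Mzb1 was seen in 84.0% and 24.7% after thinning, and in 99.2% and 51.2% before it, while T-like cells, which should lack it, held it in 6.55% of cells before thinning. Srp14 was seen in 15.2% of thinned plasma cells and 15.7% of thinned other B cells, within the counting intervals of each other.

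The plasma cells varied among themselves. The share of the 41 genes per cell ran from 0.499% to 10.8%, with medians of 1.80%, 2.04% and 3.10% in libraries 1, 2 and 3. Without immunoglobulin genes the medians were 5.08%, 5.31% and 5.84%. Across the 125 cells, the share of immunoglobulin and the share of the 41 genes had a Spearman correlation of -0.35, and with immunoglobulin left out of the total of the 41 genes it was 0.16. In the first of these both measures share 1 total, the cells come from 3 libraries, and both values are given as a description. Over 5% of UMIs came from the 41 genes in 13 cells, 2, 2 and 9 in libraries 1, 2 and 3.

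Immunoglobulin took least of the UMIs in library 3, which raises other genes there. Library 3 was the highest of the plasma cell libraries for 33 of 41 genes, against 64.7% of the 3795 genes at 20 CPM or more in plasma cells. For 26 of 41 the intervals of the highest and lowest library did not overlap, against 26.2% of these genes. Such intervals are narrower for genes with more UMIs, and the genes were not matched for level. The median ratio of the highest to the lowest library was 1.56, and the largest was 3.13, for Hsp90b1. Without immunoglobulin genes, library 3 was highest for 21 of 41 genes (all genes, 30.7%) and the median ratio was 1.34. On that scale Hsp90b1 had 7323, 7787 and 16561 CPM, and Mzb1 had 5763, 5295 and 6069 CPM. The ratio of the highest to the lowest library was then 2.26 for Hsp90b1, against 3.13 over all UMIs, and 1.15 for Mzb1, against 1.53. Markers of other cells in the plasma cells differed too. The sum of 9 erythroid markers was 5239.8, 20.9 and 59.7 CPM, that of 8 T cell markers 85.3, 118 and 323 CPM, and that of 8 monocyte markers 249, 245 and 702 CPM in libraries 1, 2 and 3. Most of the monocyte sum was 1 gene, Ly6c2, at 226, 237 and 658 CPM, so it says little about the other monocyte markers. Of the T cell sum, Cd28 had 52.9, 33.4 and 79.1 CPM. The part of these markers in the differences between libraries was not tested.

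The libraries also differed in the antibody class of their plasma cells, read from the most counted heavy chain constant gene of each cell. IgG cells numbered 5, 5 and 20 in libraries 1, 2 and 3, IgM cells 35, 39 and 13, and IgA cells 3, 1 and 4. The 41 genes took 3.81% of UMIs in IgG cells and 2.20% in IgM cells, a ratio of 1.74 (1.71 to 1.77), and 6.82% against 4.76% without immunoglobulin genes. Within libraries the direction of the summed shares was not the same. IgG cells had 1.82%, 3.73% and 4.44% in libraries 1, 2 and 3, and IgM cells 2.23%, 2.11% and 2.36%, so by summed UMIs IgG cells were lower in library 1 and higher in libraries 2 and 3. Medians per cell were 1.82%, 3.45% and 3.85% in IgG cells and 1.77%, 1.96% and 1.84% in IgM cells. The lower sum in library 1, from 5 IgG cells, was thus not seen in the medians. Of the 9 cells of library 3 with over 5%, 8 were IgG cells.

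Among the genes, Hsp90b1 had the largest ratio of IgG to IgM cells, 3.18 (3.06 to 3.31), with 10308 CPM in IgG cells and 3239 CPM in IgM cells. The ratio was 0.731, 2.80 and 3.06 in libraries 1, 2 and 3. Ddit3 had the smallest, 0.188 (0.0372 to 0.595), with 5.22 CPM in IgG cells and 27.7 CPM in IgM cells. Immunoglobulin took 44.1% of UMIs in IgG cells and 53.8% in IgM cells. Of the 41 genes, 30 had an interval above 1 (22.1% of the 4421 genes at 20 CPM or more in either) and 3 had one below 1 (all genes, 5.5%). Without immunoglobulin genes, 19 were above 1 (all genes, 9.79%) and 7 below (all genes, 10.3%). These counts also depend on the number of UMIs per gene, which was not matched. Cells with a UMI of the cell cycle genes Mki67 or Top2a numbered 51 (12, 15 and 24) and had 3.16%, against 2.26% in the 74 cells without. Their median depth was 20074 UMIs, against 12443 in the cells without, so the split also follows depth. In libraries 1, 2 and 3 the cells with such a UMI had summed shares of 2.74%, 2.52% and 3.81%, and those without had 1.89%, 2.19% and 3.43%. Medians per cell were 1.73%, 2.08% and 2.92% with such a UMI and 1.81%, 1.97% and 3.10% without. By medians the direction thus held in library 2 only. On the scale without immunoglobulin the pooled shares were 5.61% and 5.25%, and the direction of the summed shares turned in library 3. On that scale the cells with such a UMI had 5.30%, 5.26% and 5.91% in libraries 1, 2 and 3, and those without had 4.77%, 4.99% and 6.79%.

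Antibody class, cell cycle and library were partly mixed, so cells without a Mki67 or Top2a UMI were also divided by class. Among these, IgG cells (3, 2 and 7 in libraries 1, 2 and 3) had 2.28%, 2.41% and 4.05%, and IgM cells (26, 28 and 4) had 1.75%, 2.16% and 1.82%. IgG cells were higher in each library, and library 3 stood out among IgG cells but not among IgM cells. Without immunoglobulin genes these IgG cells had 5.13%, 5.65% and 8.03%, and the IgM cells 4.62%, 4.91% and 3.40%. Over all IgM cells that share was 5.32%, 4.87% and 3.60%, so library 3 was the lowest. Immunoglobulin took 58.0%, 56.6% and 34.4% of the UMIs of these IgM cells. Gated cells outside the plasma cluster numbered 5, 4 and 9 in libraries 1, 2 and 3. For the cells inside it, the 41 genes took 2.27%, 2.34% and 3.46% of all RNA UMIs. The part of this make-up in the differences between libraries was not tested.

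**Figure D4:**
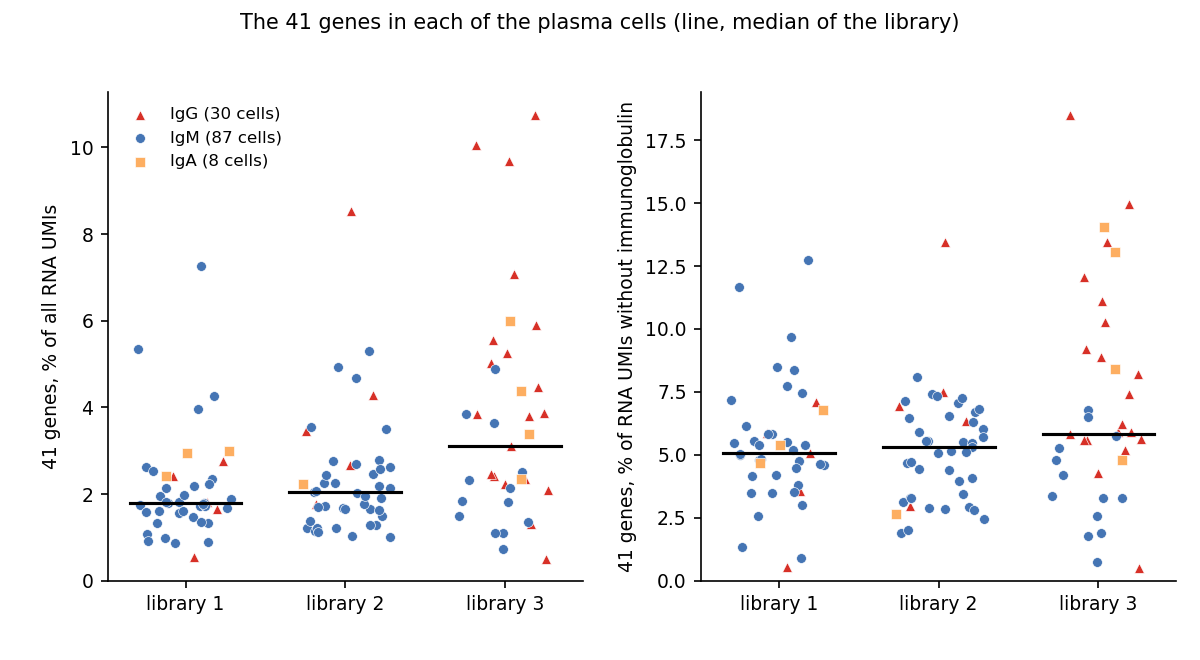
Share of RNA UMIs from the 41 genes (y axes, percent) in each of the 125 plasma cells by library (x axes), over all RNA UMIs (left) and without immunoglobulin genes (right), with symbols for IgG, IgM and IgA cells and a line at each library's median. The medians are 1.80%, 2.04% and 3.10% on the left and 5.08%, 5.31% and 5.84% on the right, and the highest cells of library 3 are mostly IgG cells.

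At the edge of the gate, the 15 cells with 20 to 39 Jchain UMIs had 2.15% of their UMIs from the 41 genes and the 110 cells with 40 or more had 2.77%. Outside it, 5 cells with 10 to 19 Jchain UMIs and enough Xbp1 had 1.16%, and 6 cells with enough Jchain and 1 to 2 Xbp1 UMIs had 1.34%. These neighbours lay between other B cells and the gated cells.

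Other B cells were divided by clusters made without the 41 genes, a further list of pathway genes, Jchain and Xbp1. Marginal zone-like cells, led by Cr2, Fcrl5 and Cd36, had 0.567%, 0.573% and 0.553% of UMIs from the 41 genes, against 0.505%, 0.513% and 0.501% in follicular-like cells, led by Fcer2a and Cd55, a ratio of 1.11 (1.10 to 1.12). One of 39 genes of the list at 20 CPM or more was at least 2-fold higher in every library (all genes, 0.546%) and 0 lower (all genes, 0.0331%), and the median log2 ratio was 0.08, with -0.06 for all genes. The gene that passed was Pdia4, with 292, 290.0 and 272 CPM in marginal zone-like cells and 121, 137 and 119 CPM in follicular-like cells, a ratio of 2.21 (2.09 to 2.34). The libraries of the 2 classes were well apart. Mzb1, named for marginal zone B cells, had 588, 497 and 424 CPM in marginal zone-like cells and 306, 296 and 267 CPM in follicular-like cells, a ratio of 1.62 (1.55 to 1.69). It was higher in every library but below 2-fold. The smallest ratio was that of Srp9, 0.793 (0.743 to 0.846).

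B1-like cells, led by Zbtb32 and Bhlhe41, had 0.668%, 0.660% and 0.621% in libraries 1, 2 and 3, above follicular-like cells in each, with a ratio of 1.30 (1.29 to 1.32). One of 39 genes was at least 2-fold higher in every library (all genes, 2.97%) and 0 lower (all genes, 1.46%), and the median log2 ratio was 0.23, with -0.05 for all genes. The higher gene was Mzb1, with 1095, 770.1 and 782 CPM in B1-like cells and 306, 296 and 267 CPM in follicular-like cells, a ratio of 3.26 (3.13 to 3.40). The classes did not overlap. Pdia4 had 381, 189 and 251.01 CPM in B1-like cells and 121, 137 and 119 CPM in follicular-like cells, and its ratio of 1.385 in library 2 kept it from counting. Creld2 had a ratio of 1.92 (1.60 to 2.29) and Atf6 one of 1.96 (1.77 to 2.17), and Ddit3 (0.734) and Calr (0.846) were lower in B1-like cells. The number of genes that passed was 2 without library 2, where Pdia4 passed, and 2 without library 3, which held 44 of the 753 B1-like cells and where Creld2 passed.

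B cells led by the activation genes Egr1, Egr3 and Nr4a1 had 0.721%, 0.715% and 0.632% in libraries 1, 2 and 3, with Hspa5 at 901 CPM against 378 CPM in follicular-like cells, a ratio of 2.38 (2.23 to 2.54). Mzb1 went the other way, at 179 against 285 CPM. In a cluster of B cells with few UMIs (median 1176) the share was 0.653%, and Hsp90b1 had a ratio to follicular-like cells of 2.20 (2.11 to 2.29) while Sec61b had one of 0.364 (0.327 to 0.405). The part that depth plays in these shallow cells was not tested.

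Plasmacytoid-like cells were few, 40 cells (4, 11 and 25 per library), and had 1.10%, 1.04% and 1.10% of UMIs from the 41 genes, against 0.768%, 0.696% and 0.649% in dendritic-like cells. The ratio was 1.58 (1.52 to 1.63). Of 40 genes, 6 were at least 2-fold higher in every library (all genes, 9.19%) and 0 lower (all genes, 3.62%), and the median log2 ratio was 0.59, with 0.21 for all genes. The 6 were Mzb1 (5.74), Ern1 (4.03), Hsp90b1 (3.16), Dnajb9 (3.00), Spcs2 (2.68) and Manf (2.56). Hsp90b1 had 1668, 1373 and 1654 CPM in plasmacytoid-like cells and 510.5, 488 and 511 CPM in dendritic-like cells, with no overlap. Ern1 had 77.6, 70.0 and 88.3 CPM in plasmacytoid-like cells, from 2, 5 and 19 UMIs, and 25.1, 21.3 and 18.1 CPM in dendritic-like cells. Mzb1 in plasmacytoid-like cells rested on 39 UMIs. Sdf2l1 had the smallest ratio, 0.528 (0.308 to 0.849).

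Of the 41 genes, 32 had their highest level among 18 classes in plasma cells, against 2.79% of the 10043 genes at 20 CPM or more in any class, and 23 did so in each library alone (all genes, 1.06%). The 9 others were Ssr1, Rpn2, Atf6 and Ern1, highest in plasmacytoid-like cells, Sec61g and Atf4, highest in erythroid-like cells, Canx in macrophage-like cells (457 CPM), Srp14 in NK-like cells (227 CPM) and Ddit3 in mature neutrophil-like cells (66.0 CPM). Over all UMIs each of the 4 sensors and factors thus had its highest pooled level outside plasma cells, although Ern1 and Atf6 were highest in plasma cells in 1 library each. The counts per library include very small classes. Neutrophil-like cells with granule genes were 1 cell in library 2 and 1 cell in library 3. There 2 UMIs gave Ern1 131 CPM in library 2 and Ssr3 1183 CPM in library 3, above plasma cells.

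This order depended on the total. Without immunoglobulin genes, 40 of the 41 were highest in plasma cells (all genes, 8.02%), and the exception was Ddit3, at 43.9 CPM in plasma cells and 66.2 CPM in mature neutrophil-like cells. Atf6 then had 275, 211 and 245 CPM in plasma cells, against 144 CPM in plasmacytoid-like cells. Atf4 had 174, 196 and 205 CPM in plasma cells, and the next class was activated B cells at 148 CPM. Ern1 had 188, 125 and 71.8 CPM in plasma cells and 77.8, 70.2 and 88.5 CPM in plasmacytoid-like cells, from 26 UMIs, so plasma cells were not the higher ones in library 3. Canx was close, at 497 CPM in plasma cells and 461 CPM in macrophage-like cells.

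**Figure D5:**
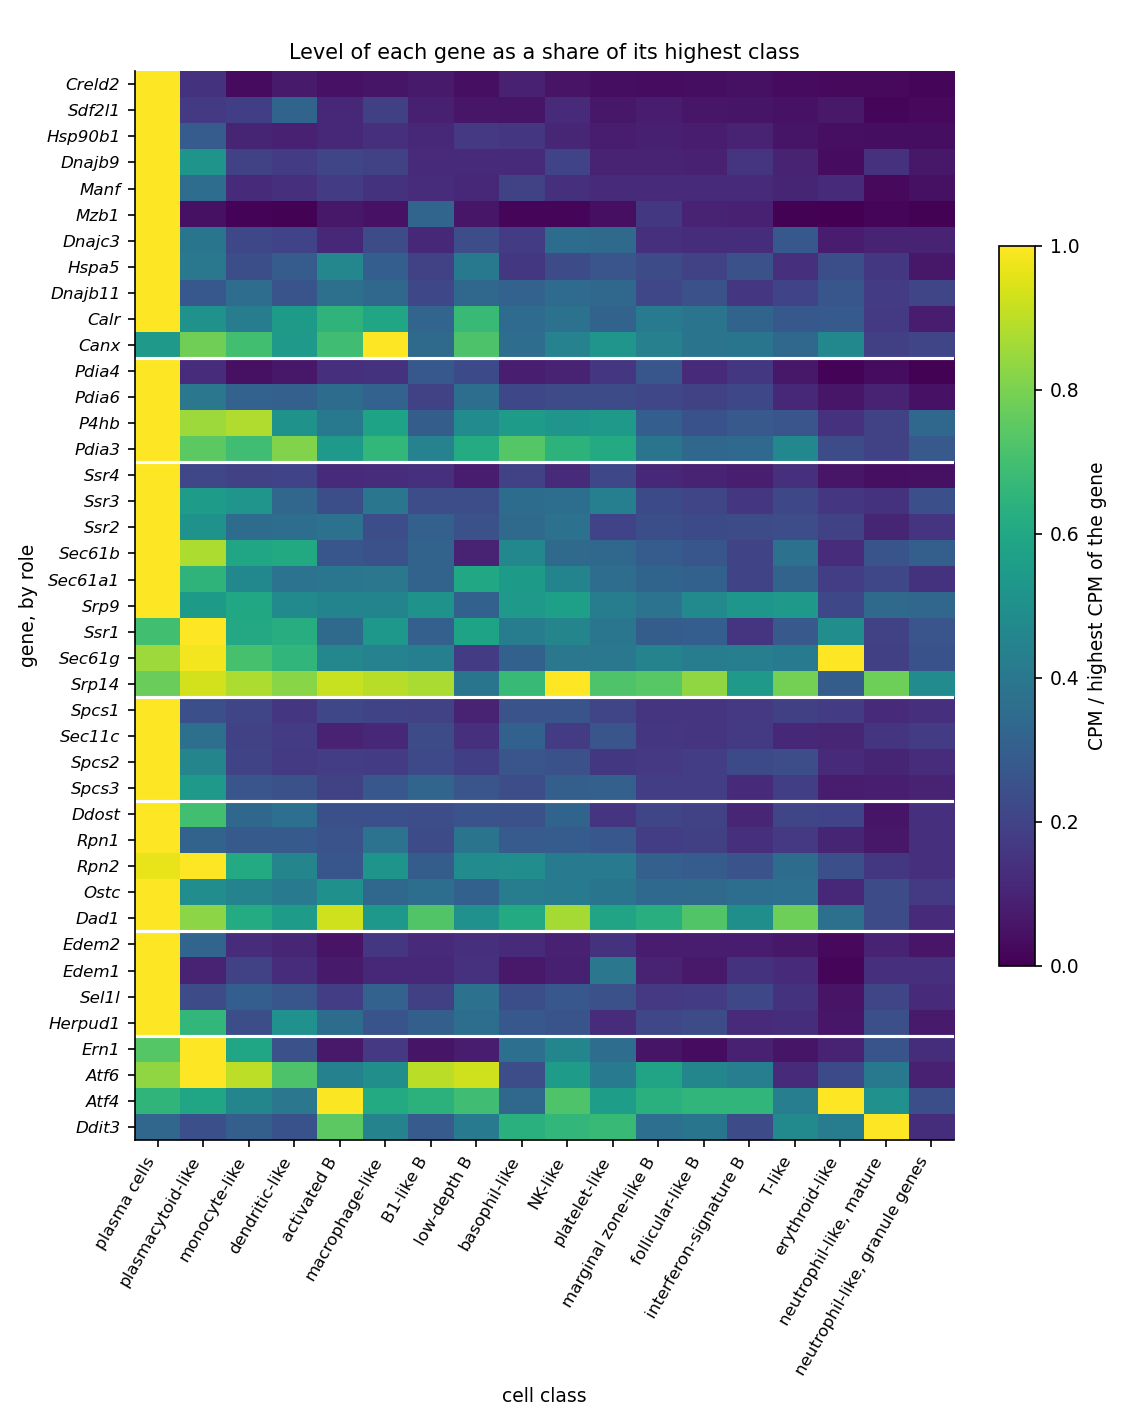
Level (CPM over all RNA UMIs) of each of the 41 genes (y axis, by role) in 18 cell classes (x axis) as a share of the gene's highest class (colour, 0 to 1). Plasma cells are the highest class for 32 genes on this scale, while the sensors and factors at the bottom peak in other classes, and for 40 genes once immunoglobulin is left out of the total.

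Further lists were set beside the 41 genes. Of 61 other genes of the secretory pathway, 58 were at 20 CPM or more, and of these 26 were at least 2-fold higher in plasma cells in every library (all genes, 4.28%) and 1 lower (all genes, 36.9%), with a median log2 ratio of 1.05 (all genes, -1.16). Txndc5, a disulfide isomerase, had 1141 CPM in plasma cells and 121 CPM in other B cells, a ratio of 9.44. Fkbp2, a proline isomerase of the lumen, had 605 against 56.1 CPM, and Krtcap2, an oligosaccharyltransferase subunit, 692 against 197 CPM. Serp1, which stabilises proteins at the translocon, had 765 against 477 CPM, a ratio of 1.60, and did not pass. The gene that was lower was Tusc3, another oligosaccharyltransferase subunit, at 5.45 CPM in plasma cells, from 11 UMIs, and 21.99 CPM in other B cells. Without immunoglobulin genes, 47 of 58 were higher (all genes, 9.17%) and 0 lower (all genes, 7.98%).

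Of 19 targets of Atf4 and the integrated stress response, 12 were at 20 CPM or more, and of these 4 were higher (all genes, 4.28%) and 0 lower (all genes, 36.9%), with a median log2 ratio of 0.92. They were Slc3a2 (581 against 68.9 CPM), an amino acid transporter chain, Phgdh of serine synthesis (ratio 2.60), Atf5 (14.4) and Asns, the asparagine synthetase (42.7), while Atf4 itself had a ratio of 0.984. Without immunoglobulin genes, 7 of these 12 were higher (all genes, 9.17%) and 0 lower (all genes, 7.98%), with a median of 1.90. The ratio of Atf4 also rose on that scale, as given above. Of 18 chaperones of the cytosol and mitochondria, 16 were at that level, of which 0 were higher and 7 lower, a share near the 36.9% of all genes, with a median log2 ratio of -1.41, close to that of all genes. Hsp90ab1, the cytosolic relative of Hsp90b1, had 491 CPM in plasma cells and 1358 CPM in other B cells, and Hspa8, the cytosolic relative of Hspa5, had 237 against 707 CPM. Without immunoglobulin genes none of these 16 was 2-fold higher or lower in every library, and the median was -0.43 with that of all genes at -0.19.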

How the data were processed

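The authors deposited 1 joint matrix of whole-number UMI counts per gene or antibody and barcode, not normalized. Per the submitters' processing notes the tools were Cell Ranger (5.0.1 in the file header) and Seurat, with build mm10. The sources used here do not say whether libraries were subsampled when joined. Per-sample columns without a match numbered 0.

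Members and lists were chosen with earlier results of these data known. Counts of kept cells were summed per class and library and divided by all RNA UMIs (CPM), with exact Poisson intervals, and ratios have exact conditional intervals. A gene counted as higher or lower where its ratio reached 2 in every library, 0.5 counts added, among genes seen in at least 3 cells and at 20 CPM or more in either class. Symbols that occur more than once were left out. Kept cells were clustered (scanpy 1.11.5, Louvain in python-igraph 0.11.9, 2000 variable genes, 20 components, 20 neighbours, resolution 0.8) and those outside the plasma gate named "-like" from listed markers, so differences from the study's names may come from this. Genes described in full are those with the largest and the smallest ratio of each role group. Other classes, lists and thresholds were tried as given below. The ratio rule was tested on simulated counts drawn from the profile of other B cells, with counting error only. They held neither spread between cells nor the immunoglobulin load of plasma cells, so they do not show how the rule behaves under these. Promoter windows come from RefSeq (GRCm38.p6), checked for strand against transcript starts. Python 3.11.15, numpy 2.4.6, scipy 1.17.1 and pandas 2.3.3 were used.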

Additional observations from a re-analysis of the deposited data

Results flagged for a closer look

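Outside every comparison stood 5 barcodes that passed the plasma gate but not the limits on cells, 3 for more than 5000 genes and 2 for more than 10% mitochondrial counts. The 41 genes took 1.07% of their RNA UMIs (1.021 to 1.13), above the 0.558% of other B cells and below the 2.71% of the gated plasma cells.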

How the results depend on the processing

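A value is called moved here where a count changed by over 1.5 times or another value left the exact interval of the value given in the report, or, for the median, the range of the medians of the 3 libraries, and 37 of 97 recomputed values did so, none with its direction reversed. The share of the 41 genes in plasma cells, 2.71%, was 5.45% without immunoglobulin genes, 2.59% at a gate of 10 Jchain and 1 Xbp1 UMIs, 2.81% at 40 and 6, 2.60% with no upper limit on genes, 2.68% as a mean over cells and 2.75% after thinning to 1000 UMIs. The ratio to other B cells, 4.85, was under the same alternatives 9.61, 4.65, 5.03, 4.67, 4.80 and 4.998, and 4.96 at a mitochondrial limit of 5% and 4.95 without the shallow B cells. Leaving out each library in turn gave 2.26% to 2.97% and ratios of 3.95 to 5.39, the lowest without library 3. Of the alternatives chosen after seeing the data, the cells of the plasma cluster alone gave 2.59% and 4.65, leaving out IgG cells 2.27% and 4.06, and leaving out cells with Mki67 or Top2a 2.26% and 4.06. The median log2 ratio, 2.17, moved to 3.16 without immunoglobulin genes, and was 1.91 to 2.31 with a library left out. The number of genes that passed ran from 25 at 3-fold to 38 without immunoglobulin genes, 27 without the cells with Mki67 or Top2a, and 30 to 33 with a library left out. Among all genes the calls moved further: 569 were higher and 495 lower without immunoglobulin genes, against 269 and 2319 with them, and with no filter on level 4274 of 17194 were higher, where added counts weigh on sparse genes. The ratio of B1-like cells was 1.33 at resolution 1.2 and 1.29 to 1.32 with a library left out, and 1 to 2 genes passed. That of marginal zone-like cells was 1.09 after thinning and 1.10 to 1.12 with a library left out. That of plasmacytoid-like cells was 1.79 after thinning and 1.45 to 1.62 with a library left out. Without immunoglobulin genes, an alternative chosen for these counts after seeing the data, library 3 was the highest of the plasma cell libraries for 21 genes, against 33 with them, the interval of IgG over IgM cells was above 1 for 19 genes, against 30, and below 1 for 7, against 3. No paired analysis was possible because no library could be tied to a group.

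With 1 library of pooled mice per group, intervals cover counting error and not differences between animals, and 125 plasma cells limit every value that divides them. The 5 cells with the most UMIs of a gene held 10.5% to 36.4% of its plasma cell UMIs. Scrublet marked 469 kept cells, and without them the ratio was 4.86.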
